A study of Mus musculus with 9 samples.

Results

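Transcripts of 51 genes for translation initiation factors were examined in mature mouse oocytes, halted at metaphase of meiosis II. Members were all symbols that start with Eif followed by a digit, without the Eif2ak kinases and without pseudogene symbols that contain -ps, which gave 51 of 24736 genes in the tables. RNA was sequenced from 9 libraries, each made from 15 oocytes of 1 mouse, in 3 groups of 3 female ICR mice labelled as 4 to 5 weeks old. The labels do not say whether this is the age at the start or at collection of the oocytes, and the treatments below ran for longer than that age. Control mice were not stressed. Stress mice received 1 stressor a day (tail pinch, cold swim, deprivation of water or food, wet bedding, continuous light or restraint) in a chronic unpredictable mild stress model, for 6 weeks as the labels describe it for the mice given the recipe. KYZY mice received the same stressors for 6 weeks and then 0.1 ml of a decoction of the herbal recipe KYZY by gavage once a day for 4 weeks. All 9 mice were superovulated with PMSG and hCG (7.5 IU each), and the oocytes were freed of cumulus cells with hyaluronidase 16 hours later. The labels describe no stressed mice given a vehicle, and they describe the sequencing of the KYZY libraries differently, so gavage, the added weeks, sequencing and recipe cannot be told apart.

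Initiation factors bring the initiator tRNA, the small ribosomal subunit and a capped mRNA together and then release the subunits into elongation. eIF2 carries the initiator tRNA, eIF2B recharges eIF2 with GTP, eIF3 is the scaffold on the small subunit, and eIF4F (cap-binding eIF4E, helicase eIF4A and scaffold eIF4G) recruits the mRNA. The fully grown oocyte is transcriptionally silent and makes its proteins from stored mRNAs, many of them held back or released through their cap and poly(A) tail. Libraries of this kind are primed on the poly(A) tail, so a change in tail length and a change in transcript number cannot be told apart here, and neither can fewer cells of a type and less RNA per cell.

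Promoter regions of 1 gene for each subunit of eIF4F are shown, chosen because these windows hold the motif described here. RefSeq (GRCm38.p6) held a start for 39 of the 51 members. The letters are the 250 bases before a start, 5′ to 3′ on the strand of the gene, and capitals mark CACGTG, the E-box that MYC proteins are known to bind, searched on both strands (it reads the same on both). Eif4e has 2 annotated starts, of which the downstream one is shown, and the window of the upstream one holds no CACGTG. The windows lie at chr3:138527018-138527267 (plus strand, Eif4e), chr11:69672424-69672673 (minus strand, Eif4a1) and chr16:20672477-20672726 (plus strand, Eif4g1).
Eif4e: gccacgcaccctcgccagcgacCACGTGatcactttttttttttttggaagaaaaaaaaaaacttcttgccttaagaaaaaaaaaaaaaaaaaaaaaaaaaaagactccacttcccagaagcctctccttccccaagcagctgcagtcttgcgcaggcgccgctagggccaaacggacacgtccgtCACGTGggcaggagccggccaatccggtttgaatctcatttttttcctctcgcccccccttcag
Eif4a1: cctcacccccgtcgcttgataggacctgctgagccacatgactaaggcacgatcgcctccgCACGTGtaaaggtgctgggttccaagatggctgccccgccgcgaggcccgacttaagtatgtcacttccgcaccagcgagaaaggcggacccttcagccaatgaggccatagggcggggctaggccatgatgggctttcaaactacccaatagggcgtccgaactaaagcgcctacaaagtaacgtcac
Eif4g1: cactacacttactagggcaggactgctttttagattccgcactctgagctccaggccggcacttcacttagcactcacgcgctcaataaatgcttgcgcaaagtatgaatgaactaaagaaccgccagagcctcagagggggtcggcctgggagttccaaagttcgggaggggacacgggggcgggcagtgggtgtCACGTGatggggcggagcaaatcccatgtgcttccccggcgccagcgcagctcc
The Eif4e window held 2 copies of CACGTG and the windows of Eif4a1 and Eif4g1 held 1 each. The motif was present in 11 of 51 member windows, from 9 genes, and in 6.02% of all 32851 windows of this length. The windows of Eif4a2, Eif4a3, Eif4e2 and Eif4g3, which encode relatives of the same subunits, held none. A match is a description of letters and not a binding site.

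Total counts ran from 46324094 to 106990821 per library, and members took 0.795% to 0.950% of them. Levels are given as CPM, counts scaled to 1e+06 per library after TMM normalisation. A value of 0 allows up to 12 counts, or 0.105 to 0.245 CPM by library, counting error only. Oocyte markers were abundant in all 9 libraries (13 genes, 21368 to 40196 CPM in sum, none at 0). Control 3, stress 3, KYZY 2 and KYZY 3 stood apart in 28 markers of cumulus and granulosa cells, which summed to 80.4 to 676 CPM with 2 to 6 markers at 0, against 21.7 to 40.7 CPM with 11 to 19 at 0 in the other 5. The 10 markers of oviduct epithelium summed to 272 to 501 CPM over the 9 libraries, nearly all of it Cdh1 (243 to 500 CPM). Without Cdh1 the other 9 summed to 18.7 CPM in control 3 and 28.7 CPM in KYZY 3, against 0.466 to 4.75 CPM in the remaining 7 libraries. Blood and immune markers summed to 1.09 to 62.1 CPM in the 4 and 0.380 to 3.07 in the others, and stroma and endothelium markers to 30.1 to 105 and 20.8 to 31.8 CPM. Control 3 and KYZY 3 stood apart in the stroma list too, with 81.3 and 105 CPM against 20.8 to 37.0 CPM in the remaining 7. Results are therefore also given without the 4 libraries, where KYZY 1 is alone in its group and assumed to vary like the others.

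Of the 51 members, 49 passed the filter on low counts. The 2 that did not were Eif2s3y, the Y-linked copy of the eIF2 gamma subunit, at 0 in all 9 libraries of these female cells, and Eif4ebp3, at 0 in 8 libraries and at 0.130 CPM in control 3, under the floor of 0.156 there. To compare genes, CPM was divided by the median length of a gene's coding transcripts in kilobases (GENCODE M21). Over 9 libraries the median member stood at 9.76 CPM per kilobase, against 1.71 for all 13126 tested genes with a length. In this order 17 of the 49 members lay in the top 10% of genes and 9 lay below the median gene. How much of a level comes from reads shared with near-identical copies was not tested, which concerns Eif1 and Eif1b, Eif1a and Eif1ax, Eif3j1 and Eif3j2, Eif4a1 and Eif4a2, and Eif5a and Eif5a2.

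**Figure D1:**
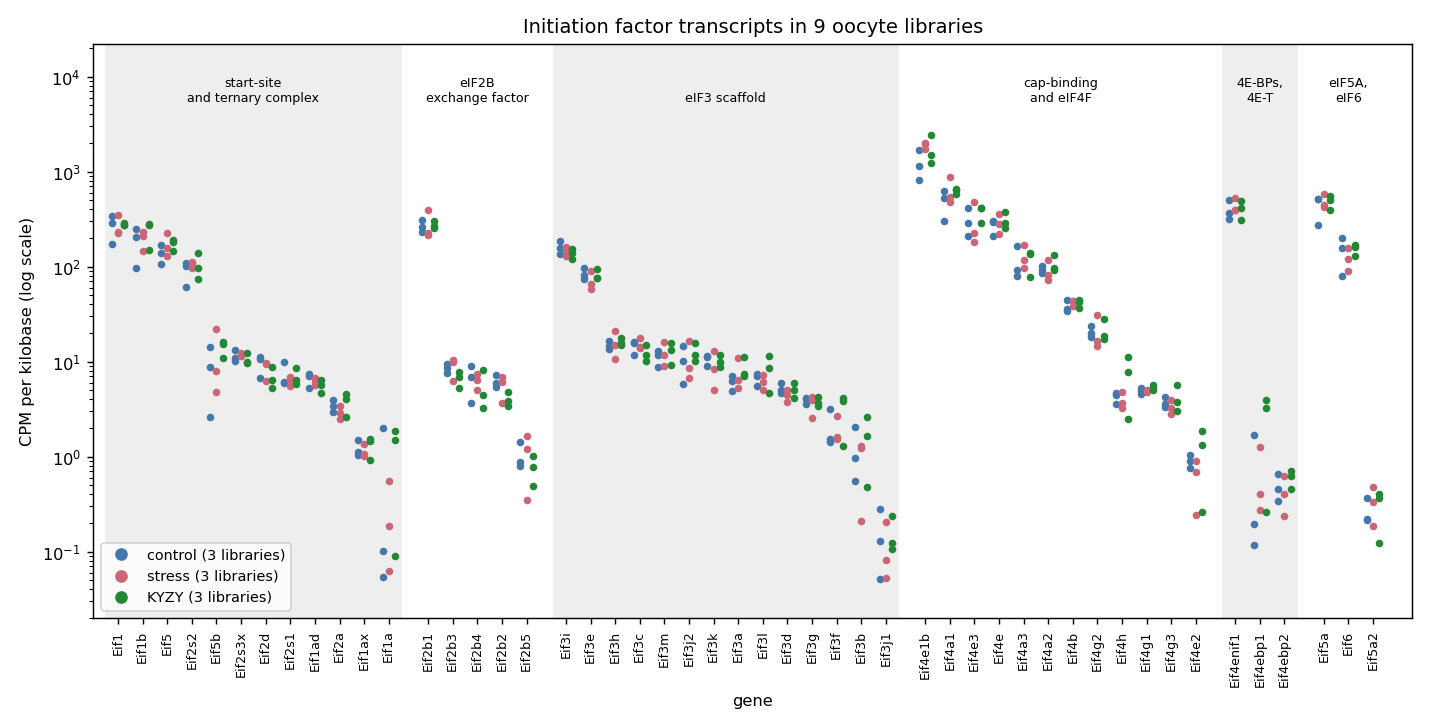
CPM per kilobase of coding transcript (log axis) of the 49 members that passed the filter, by role, with 1 point per library and colour for the group (3 libraries each). Within each role the genes span 2 or more orders of magnitude, and the 3 groups lie over each other for most genes.

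Among the start-site factors, Eif1, which guards start codon choice, was highest at 271 CPM per kilobase (mean of 9 libraries, range 174 to 350). Eif1b, its close paralog, stood at 204 and was below Eif1 in 7 of 9 libraries. Eif5, the GTPase activator of eIF2, stood at 160 CPM per kilobase. The subunits of eIF2 were uneven: Eif2s2 (beta) stood at 99.6 CPM per kilobase, Eif2s3x (X-linked gamma) at 11.3 and Eif2s1 (alpha, the subunit phosphorylated in the stress response) at 6.83. The ratio of Eif2s2 to Eif2s1 per kilobase was 10.2 to 22.0 over the 9 libraries. Eif2s3x was among the steadiest members, at 24.3, 31.6 and 25.7 CPM in the control mice, 27.0, 27.4 and 29.5 after stress, and 29.2, 23.1 and 23.8 with KYZY.

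Eif2b1, the alpha subunit of the exchange factor eIF2B, stood at 273 CPM per kilobase, while Eif2b5, the catalytic epsilon subunit, stood at 0.951. The ratio between them was 137 to 1117 over the 9 libraries. The other subunits lay together, Eif2b3 at 7.99, Eif2b4 at 6.04 and Eif2b2 at 5.24 CPM per kilobase. Eif2b5 rested on 58 to 478 counts per library. In these oocytes, then, the transcript of 1 regulatory subunit exceeded that of the catalytic subunit in every library.

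The eIF3 subunits also fell into tiers. Eif3i (148 CPM per kilobase, range 120 to 184) and Eif3e (78.9, range 58.3 to 95.3) stood above all other subunits. Eif3h, Eif3c, Eif3m, Eif3j2, Eif3k, Eif3a and Eif3l followed between 15.5 and 6.99 CPM per kilobase, and Eif3d, Eif3g and Eif3f between 4.88 and 2.36. Eif3b, the RNA-binding subunit of the complex core, stood at 1.23 CPM per kilobase. The ratio of Eif3i to Eif3b, which belong to the same module, was 45.5 to 765. Of the copies of the loosely bound subunit eIF3j, Eif3j2 exceeded Eif3j1 in 9 of 9 libraries, 49.4-fold to 126-fold per kilobase.

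The cap-binding genes included the most abundant member. Eif4e1b, the eIF4E paralog that is enriched in oocytes (chromosome 13, 54783998 to 54788459, GRCm38), stood at 1607 CPM per kilobase and ranked 43 of 13126 genes. Its length was taken as 859 bases, the median of coding transcripts that run from 706 to 2131 bases. Its level per kilobase, its rank and the size of its ratios to other genes rest on this length. Canonical Eif4e (chromosome 3, 138526179 to 138559696) stood at 287 CPM per kilobase and was the lower of the pair in 9 of 9 libraries. The ratio of Eif4e1b to Eif4e per kilobase was 5.68, 3.93 and 3.74 in control 1, 2 and 3, then 7.84, 7.06 and 5.59 after stress, then 6.38, 5.89 and 4.32 with KYZY. The ranges of control and stress overlapped only through control 1 and stress 3. Eif4e3, a further cap-binding paralog, was level with Eif4e at the length used (324 CPM per kilobase, above it in 6 of 9 libraries). That length of Eif4e was 792.5 bases, the median of coding transcripts that run from 526 to 4991 bases. The size of the Eif4e ratios rests on this choice. So does the order of Eif4e against Eif4e3, Eif4enif1, Eif2b1 and Eif1. Eif4e2, the cap-binding repressor 4EHP, stood at 0.884.

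Eif4a1, the main helicase, stood at 579 CPM per kilobase, above Eif4a2 (96.8) and the exon junction helicase Eif4a3 (119) in 9 of 9 libraries. The helicase cofactor Eif4b stood at 40.4 CPM per kilobase and its relative Eif4h at 5.10. The scaffolds were far lower than the other eIF4F subunits: Eif4g2, which lacks the eIF4E-binding part, stood at 20.8 CPM per kilobase, Eif4g1 at 5.05 and Eif4g3 at 3.72. Eif4g1 was at 24.9, 26.5 and 28.9 CPM in the control mice, 26.6, 27.5 and 26.3 after stress and 30.9, 27.0 and 28.7 with KYZY. Its coefficient of variation over the 9 libraries, 6.50%, was the lowest of the members, where the median of the 34 members at 10 CPM or more was 22.2% and that of all 5114 such genes 21.8%.

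Among proteins that bind eIF4E, the transporter gene Eif4enif1, whose product 4E-T is known to hold capped mRNAs in a repressed state, stood at 412 CPM per kilobase. At the lengths used for Eif4e and Eif4e1b, it exceeded Eif4e in 9 of 9 libraries (1.04-fold to 1.79-fold), and Eif4e1b exceeded it 2.27-fold to 5.06-fold. The 4E-BP genes, whose products block eIF4E until mTOR phosphorylates them, were near the bottom: Eif4ebp1 at 1.26 and Eif4ebp2 at 0.500 CPM per kilobase. Eif5a, the hypusine-carrying factor that helps stalled ribosomes, stood at 466 CPM per kilobase, and its paralog Eif5a2 at 0.298. Eif6, which keeps the large subunit from joining too early, stood at 140.

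Neighbours in the order often could not be told apart. Eif4e, Eif2b1 and Eif1 stood within 287 to 271 CPM per kilobase, and Eif4e exceeded Eif2b1 in 5 of 9 libraries and Eif2b1 exceeded Eif1 in 3 of 9. The same held for Eif5 and Eif3i (5 of 9). At the lengths used, Eif4e1b over Eif4a1 and Eif4a1 over Eif5a held in 9 and 9 of 9 libraries. This order rests on median lengths too, since coding transcripts run from 706 to 2131 bases for Eif4e1b and from 775 to 1437 for Eif5a.

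Stress was set against control to ask whether chronic stress changes the transcripts of initiation factors. No member passed the test over all genes (edgeR quasi-likelihood, Benjamini-Hochberg over 13890 genes), where 0% of genes were called, and no member had an unadjusted p under 0.05, against 2.69% of all genes. DESeq2 called 22 genes, no member among them. Of the 49 members 24 had a fold change above 0 and 25 below, and their median was -0.04 on the log2 scale, beside -0.03 for all genes tested. By role, 6 of 12 start-site factors, 3 of 5 eIF2B subunits, 5 of 14 eIF3 subunits and 7 of 12 cap-binding and eIF4F genes lay above 0. A change past 1 on the log2 scale was fitted for 1 member (Eif1a) and for 12.1% of all genes. The median SE was 0.296 for members and 0.396 for all genes, so these shares are not like for like, here and in the comparisons below. Markers of cumulus and granulosa lay above 0 in 11 of 21 tested (median 0.43) and of stroma and endothelium in 2 of 11 (-2.21). Those of oviduct epithelium did in 0 of 7 (-0.76) and of blood and immune cells in 1 of 6 (-0.48). Cytosolic ribosomal protein genes lay above 0 in 7 of 80 (median -0.64). The part of these lists in the members' values was not tested.

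Eif4e1b came closest. Control 1, 2 and 3 held 1442, 707 and 976 CPM of it, and stress 1, 2 and 3 held 1470, 1692 and 1728 CPM. The groups did not overlap, by the narrow gap between control 1 and stress 1, and control 2 was the lowest library. The means were 1630 ± 140 CPM in stress and 1042 ± 372 CPM in control (SD, n = 3). The fitted log2 fold change was 0.65 (SE 0.341), with an unadjusted p of 0.0870 and an adjusted p of 1.00 (edgeR, Benjamini-Hochberg). This was 1 of 49 members without overlap, while 7.88% of all genes had none between these groups, 3.51% with stress higher and 4.38% with stress lower. Leaving out control 2 gave 0.42 and leaving out control 1 gave 0.95. Without the 4 libraries of high marker score it was 0.56 with an unadjusted p of 0.243. In that fit 1 of 49 members, Eif3k, had an unadjusted p under 0.05, where 8.46% of all genes did (log2 fold change -0.75).

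The next members by p all had overlapping groups. Eif4a1 was at 1114, 533 and 941 CPM in control and 945, 842 and 1540 after stress (log2 fold change 0.36, SE 0.334). Eif5 was at 496, 373 and 602 CPM against 561, 455 and 793 in stress (0.30, SE 0.284). In both genes control 2 was the lowest library and stress 3 the highest of the 9, and without stress 3 their fold changes were 0.050 and 0.049. Control 2 also had the lowest sum over all members, 6246 CPM, and stress 3 the highest, 11890 CPM, with the others between 8126 and 10568. As shares of unscaled counts they were lowest and highest too, but closer together, at 0.795% and 0.950%. The width of the range in CPM thus depends on the scaling.

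Subunits of eIF3 made up the rest of this set. Eif3d, a cap-binding subunit, was at 9.52, 11.3 and 8.96 CPM in control and 8.37, 9.60 and 7.12 in stress (log2 fold change -0.25, SE 0.223). Eif3e was at 124, 113 and 144 CPM against 87.8, 98.8 and 135 (-0.24, SE 0.222). Eif3a, the large scaffold subunit, was at 31.8, 24.9 and 36.4 CPM against 32.8, 26.7 and 56.2 (0.31, SE 0.305), and without stress 3 its log2 fold change was -0.063. Unadjusted p-values of these 5 members were 0.293 to 0.330 and the adjusted p 1.00 in each (edgeR). The median SE of a member was 0.296, so a change of the size fitted here was not detectable with 3 libraries a group.

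**Figure D2:**
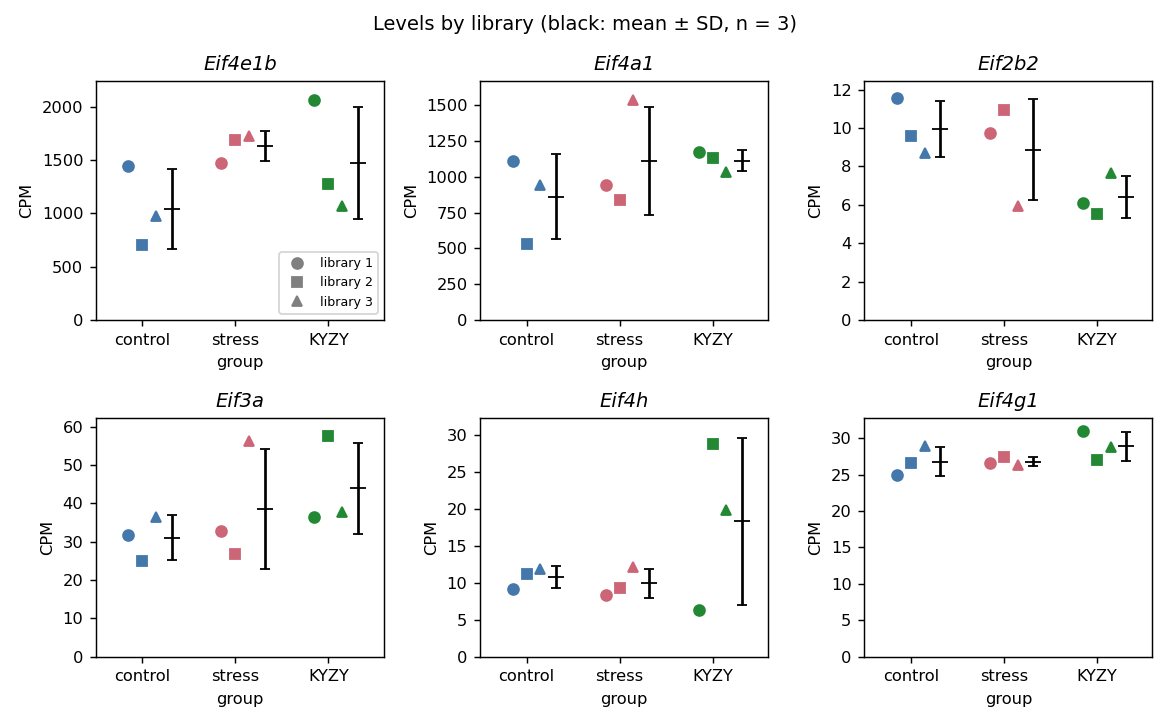
CPM by library for 6 members in control, stress and KYZY oocytes, with a symbol for the library number and the mean ± SD (n = 3) in black. Eif4e1b lies at 1470 to 1728 CPM in stress against 707 to 1442 in control, Eif2b2 at 5.52 to 7.65 in KYZY against 8.69 to 11.5 in control, and Eif4g1 at 24.9 to 30.9 in all 9 libraries.

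KYZY against stress asked whether these transcripts differ once stressed mice are given the recipe. Again no member was called (0% of all genes were called), no member had an unadjusted p under 0.05 (3.98% of all genes did), and no member had groups without overlap (9.19% of all genes did, 3.76% with KYZY higher and 5.44% lower). A change past 1 on the log2 scale was fitted for 2 members, Eif1a and Eif4ebp1, and for 17.7% of all genes. Fold changes lay above 0 in 33 of 49 members, and the members' median was 0.10 on the log2 scale, beside 0.01 and 50.8% of genes above 0 over all genes. By role, 12 of 14 eIF3 subunits and 9 of 12 cap-binding and eIF4F genes lay above 0, and 0 of 5 eIF2B subunits did (median -0.41). These are counts of fitted signs of which none passed the test, and DESeq2 called 13 genes with no member among them. Over all libraries of this comparison, markers of cumulus and granulosa lay above 0 in 21 of 21 tested (median 1.65), of stroma and endothelium in 9 of 11 (2.48), of oviduct epithelium in 6 of 7 (1.76) and of blood and immune cells in 5 of 6 (1.28). Cytosolic ribosomal protein genes lay above 0 in 75 of 80 (median 1.44). The part of these lists in the members' values was not tested.

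Without the 4 libraries of high marker score, 32 of 49 members lay above 0 in KYZY against stress, with a median of 0.18. By role, 9 of 12 cap-binding and eIF4F genes, 8 of 14 eIF3 subunits and 2 of 5 eIF2B subunits did. There, 6 of 49 members had an unadjusted p under 0.05 (Eif2b2, Eif2b5, Eif3b, Eif3e, Eif3k and Eif4a2), where 8.41% of all genes did, and none was called (edgeR). Of these, Eif3b turned from 0.79 to -1.38 and Eif2b5 went from -0.47 to -1.49 on the log2 scale. Eif3e went from 0.20 to 0.61, Eif3k from 0.21 to 0.81 and Eif4a2 from 0.25 to 0.81. KYZY 1 is the only KYZY library in that fit.

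Eif4h had the smallest p of the members. KYZY 1, 2 and 3 held 6.27, 28.7 and 19.9 CPM of it, and stress 1, 2 and 3 held 8.35, 9.35 and 12.1 CPM. KYZY 1 was the lowest and KYZY 2 and 3 the highest of these 6, so the KYZY libraries lay on both sides of the stress range. The log2 fold change was 0.88 (SE 0.443), with an unadjusted p of 0.0758 and an adjusted p of 0.935 (edgeR, Benjamini-Hochberg). It was 0.39 without KYZY 2. Without the 4 libraries of high marker score the fold change was -0.48. Eif4ebp1 was at 0.521, 7.90 and 6.41 CPM in KYZY against 0.552, 0.811 and 2.50 in stress (1.94, SE 1.27), and Eif3f at 3.25, 9.73 and 10.4 against 4.08, 3.86 and 6.64 (0.68, SE 0.467). Without the same 4 libraries these were -0.37 and -0.27.

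The eIF2B subunits lay on the other side. Eif2b2 (beta; chromosome 12, 85219481 to 85226628) was at 6.10, 5.52 and 7.65 CPM with KYZY and 9.76, 10.9 and 5.93 after stress (log2 fold change -0.47, SE 0.270). Eif2b3 (gamma) was at 12.2, 8.25 and 10.7 CPM against 15.5, 16.1 and 9.69 (-0.41, SE 0.249). In both genes stress 3 was the lowest of its group and lay within the KYZY range. Eif3c was at 34.5, 50.4 and 39.6 CPM against 46.4, 48.3 and 59.6 (-0.31, SE 0.217). The 5 members after Eif4h had unadjusted p-values of 0.113 to 0.183 and an adjusted p of 0.935 each (edgeR). Without the 4 libraries, the log2 fold change of Eif2b2 was -0.75 (edgeR adjusted p = 0.462), with 1 KYZY library.

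KYZY against control, which shares its libraries with the other 2 comparisons, asked whether the treated mice differ from unstressed ones. No member was called (0% of genes), and 1 of 49 had an unadjusted p under 0.05, against 2.74% of all genes. Fold changes lay above 0 in 35 of 49 members with a median of 0.12, beside -0.00 and 49.7% of genes above 0 over all genes. Without the 4 libraries of high marker score they lay above 0 in 32 of 49 members (median 0.18). Over all libraries of this comparison, markers of cumulus and granulosa lay above 0 in 19 of 21 tested (median 1.91). Those of stroma and endothelium did in 10 of 11 (0.28), of oviduct epithelium in 5 of 7 (0.16) and of blood and immune cells in 4 of 6 (1.83). Cytosolic ribosomal protein genes lay above 0 in 74 of 80 (median 0.83). The part of these lists in the members' values was not tested. All 12 cap-binding and eIF4F genes lay above 0 (median 0.19) and 4 of 5 eIF2B subunits below (median -0.34), none of them called, and DESeq2 called 1 gene, not a member. Without the 4 libraries of high marker score these counts were 8 of 12 above 0 and 2 of 5 below, and 4 of 49 members (Eif2b2, Eif2b5, Eif3c and Eif4h) had an unadjusted p under 0.05, where 8.83% of all genes did. Groups did not overlap for 2 members, Eif2b2 and Eif3a, while 7.23% of all genes had none, 2.43% with KYZY higher and 4.79% lower. A change past 1 on the log2 scale was fitted for 1 member, Eif4ebp1, and for 13.7% of all genes.

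Eif2b2 stood at 11.5, 9.57 and 8.69 CPM in control, against the 6.10, 5.52 and 7.65 CPM of KYZY. All KYZY libraries lay below all control libraries, with means of 6.42 ± 1.10 and 9.93 ± 1.46 CPM (SD, n = 3). The log2 fold change was -0.63 (SE 0.271), with an unadjusted p of 0.0419 and an adjusted p of 0.996 (edgeR, Benjamini-Hochberg). It was -0.76 without the 4 libraries of high marker score. Eif3a (chromosome 19, 60761117 to 60790658) was at 36.5, 57.6 and 37.8 CPM with KYZY and 31.8, 24.9 and 36.4 in control, where KYZY 1 and control 3 were almost level (0.50, SE 0.305).

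The remaining members of smallest p overlapped between the groups. Eif4h was at 6.27, 28.7 and 19.9 CPM in KYZY against 9.11, 11.2 and 11.9 in control (log2 fold change 0.77, SE 0.442), and -0.67 without the 4 libraries. Eif2d, which can place tRNA without eIF2, was at 18.9, 11.3 and 13.7 CPM against 22.7, 24.3 and 14.3 (-0.48, SE 0.283). Eif4e1b was at 2066, 1279 and 1066 CPM against 1442, 707 and 976 (0.50, SE 0.341), and 0.17 without KYZY 1. Eif4ebp1 was at 0.521, 7.90 and 6.41 CPM against 0.231, 0.392 and 3.37 (1.89, SE 1.27). Its log2 fold change was 4.00 without control 3 and 0.76 without the 4 libraries of high marker score. The 5 members after Eif2b2 had unadjusted p-values of 0.114 to 0.177 and an adjusted p of 0.996 each (edgeR).

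**Figure D3:**
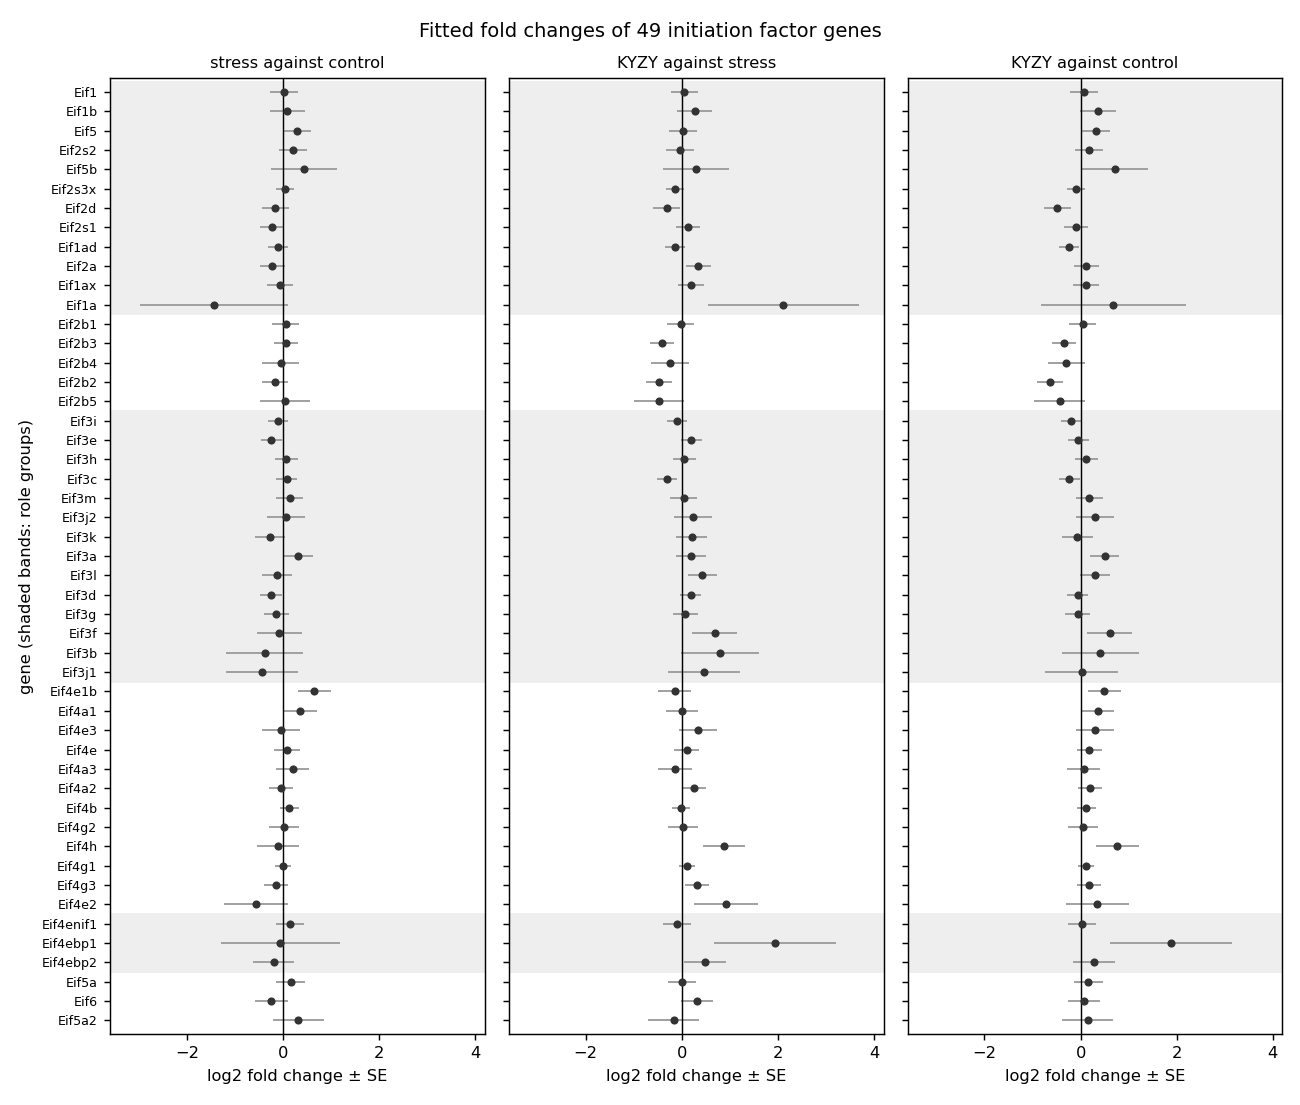
Fitted log2 fold change ± SE of the 49 members in the 3 comparisons, ordered by role in shaded bands. Most points lie within 1 of 0, the widest bars belong to Eif1a and Eif4ebp1, and no member passed the adjusted threshold.

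Some members were set apart in the 4 libraries with high cumulus and granulosa markers, which come from all 3 groups. Of the 49 members, 7 lay higher in each of these 4 than in any of the other 5 (14.3%, where 9.94% of all genes did) and 3 lay lower (6.12%, where 7.09% did). These shares lay near those of all genes, so no trait of the members as a set is read from them. Eif1a, the autosomal counterpart of X-linked Eif1ax, both encoding eIF1A of the scanning complex, reached 3.91 CPM in control 3, 1.07 in stress 3, 2.89 in KYZY 2 and 3.67 in KYZY 3. In the other 5 libraries it was at 0.105 to 0.366 CPM, where 4 of them held 12 counts or fewer. Eif1ax varied 1.68-fold over all 9.

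Eif4ebp1 (chromosome 8, 27260329 to 27276674) was at 3.37, 2.50, 7.90 and 6.41 CPM in these 4 libraries and at 0.231 to 0.811 in the other 5. Eif5b, the GTPase that joins the ribosomal subunits, was at 112 to 171 CPM in the 4 and 20.1 to 85.0 in the others. Eif3f was at 6.64 to 10.4 against 3.25 to 4.08 CPM, and Eif4h at 11.9 to 28.7 against 6.27 to 11.2. Eif4e3 (1040 to 1204 against 460 to 723 CPM) and Eif5 (602 to 793 against 373 to 561 CPM) completed the higher set. Within the 4 libraries, Eif5b, Eif4e3 and Eif5 were highest in stress 3, whose marker score was the lowest of the 4 (1.26). Eif2d (11.3 to 14.3 against 18.9 to 24.3 CPM), Eif2b4 (6.20 to 9.56 against 12.3 to 17.2 CPM) and Eif1ad (11.8 to 14.4 against 15.5 to 18.9 CPM) were the lower ones. The 4 libraries were set apart by the marker lists, with earlier results of these data known, so these ranges are a description with no test. KYZY holds 2 of the 4 and the other groups 1 each, and the part of the markers in the group differences was not tested.

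**Figure D4:**
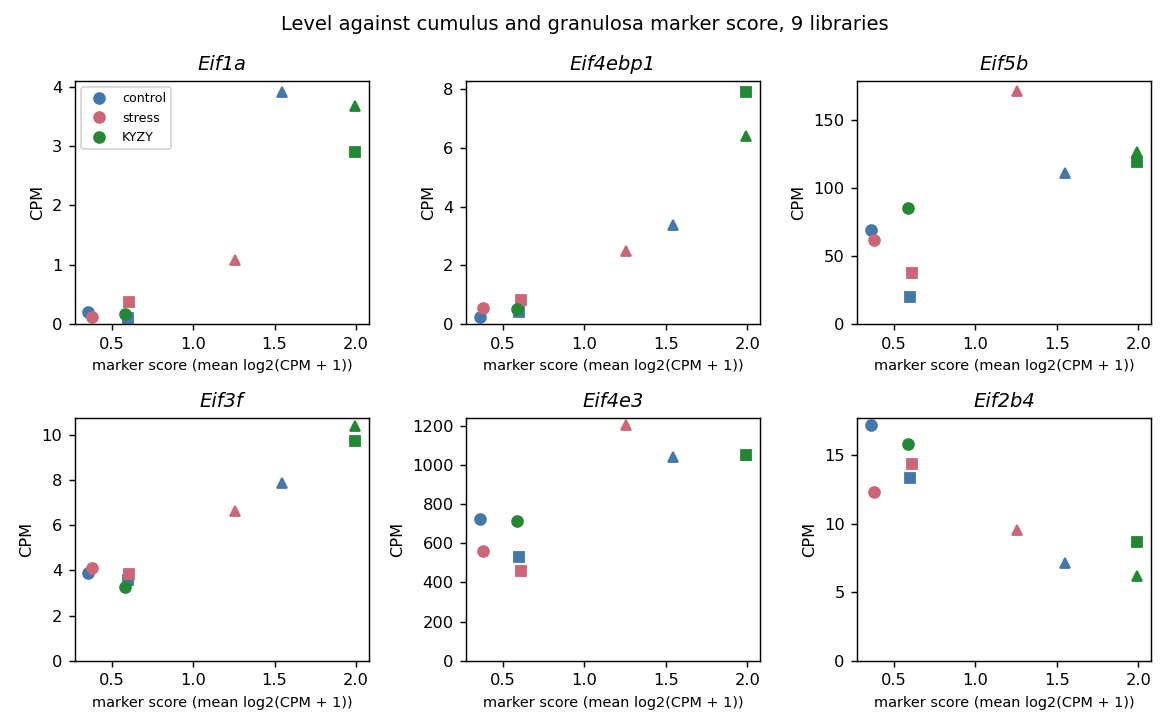
Levels of 6 members in CPM against the score of 28 cumulus and granulosa markers (mean of log2(CPM + 1)) in the 9 libraries, with colour for the group and the same symbols for the library number. The 4 libraries at a score of 1.26 to 1.99 lie above the 5 at 0.357 to 0.609 for all but Eif2b4, where they lie below.

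The other genes of the pathway gave no call either. All 39 regulators of initiation outside the symbol rule that the tables held were tested, of which 21 lay above 0 in stress against control (median 0.07), 16 in KYZY against stress (median -0.09) and 19 in KYZY against control (median -0.00). Unadjusted p-values under 0.05 were found for 2, 2 and 0 of them, against the 2.69%, 3.98% and 2.74% of all genes. Groups did not overlap for 4, 4 and 1 of the 39, against 7.88%, 9.19% and 7.23% of all genes. Eif2ak3, the kinase PERK that phosphorylates eIF2 alpha, was at 2.84, 4.02 and 5.17 CPM in control and 2.32, 1.66 and 1.83 after stress, without overlap. Its log2 fold change was -1.05 (SE 0.459), with an unadjusted p of 0.0442. Tsc2, a brake on mTOR, was at 13.0, 13.7 and 9.79 CPM in control and 16.7, 18.5 and 16.8 after stress, again without overlap. Its log2 fold change was 0.51 (SE 0.218), with an unadjusted p of 0.0409, and the adjusted p of both genes was 1.00 (edgeR, Benjamini-Hochberg).

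Of 20 elongation and termination factors 19 were tested, with 8, 13 and 13 above 0 in the same order of comparisons (medians -0.04, 0.17 and 0.18). Unadjusted p-values under 0.05 were found for 0, 2 and 0 of them. In KYZY against stress, 4 genes of both lists had one. Dhps, whose enzyme starts the hypusine of eIF5A, was at 0.711, 1.86 and 1.35 CPM with KYZY and 0.123, 0.436 and 0.636 after stress, while Eif5a itself was at 711, 500 and 650 CPM against 549, 563 and 747. The log2 fold change of Dhps was 1.71 (SE 0.674), with an unadjusted p of 0.0287 and an adjusted p of 0.935 (edgeR, Benjamini-Hochberg). The libraries of Dhps did not overlap, and those of Eif5a did, but Dhps in stress 1 lay under the floor of 0.147 CPM there. Larp1, which represses mRNAs of the translation machinery, was at 1.42, 0.969 and 0.898 CPM with KYZY and 0.221, 0.227 and 0.652 after stress (1.58, SE 0.677), again without overlap. The floors in stress 1 and 2 were 0.147 and 0.105 CPM. Bzw1, a mimic of eIF5 that tightens start codon choice, was at 34.1, 54.2 and 75.6 CPM against 25.9, 30.6 and 35.5 (0.83, SE 0.327). Eef1d, a subunit of the exchange factor of eEF1A, was at 4.19, 8.27 and 10.1 CPM against 3.88, 5.25 and 4.13 (0.77, SE 0.322). The groups of Bzw1 and Eef1d overlapped through KYZY 1, and the adjusted p of all 4 genes was 0.935 (edgeR, Benjamini-Hochberg). Bzw1 was also higher in each of the 4 libraries of high marker score (35.5 to 75.6 CPM) than in the other 5 (25.9 to 34.8 CPM). Dhps, Larp1 and Eef1d were not set apart in this way, and the part of the markers was not tested. The 6 genes named from these lists are those with an unadjusted p under 0.05.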

How the data were processed

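Each library was built from 15 oocytes of 1 mouse with SMART-Seq v4 and Tn5, per the labels' protocols, with no molecular identifiers or strand. The submitters' processing notes name bcl2fastq 2.20, Trim Galore, HISAT2, StringTie, DESeq2 and the build GRCm38 (mm10), with no further detail. The deposited values are expected counts per gene: whole numbers whose low values cluster near 4, so 1 read pair was taken as about 4 and the floor of 3 read pairs as 12 counts. They were used as deposited.

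Genes were filtered (filterByExpr, minimum count 10, total 15), which kept 13890 of 24736, and scaled by TMM. One fit of all 9 libraries in edgeR 4.0.16 (R 4.3.3; quasi-likelihood F test, 2-sided, 6 residual degrees of freedom) gave 3 comparisons, adjusted by Benjamini-Hochberg over all genes tested, with a threshold of 0.05. The common biological coefficient of variation was 0.611. P-values measure the spread between these libraries, 1 mouse each. Alternatives were DESeq2 1.42.0, RLE scaling, other filters, 2 groups only, a replicate block, counts divided by 4 and libraries left out. The fits were tested on simulated data.

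For each comparison the 6 members of smallest p are given with their fold change and SE. The members, lists and the 4 libraries left out were chosen with earlier results of these data known. The RefSeq and GENCODE M21 tables of GRCm38 gave starts, positions and lengths.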

Additional observations from a re-analysis of the deposited data

How the results depend on the processing

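No member was called in any alternative. The number of genes called, 0 in each comparison, was 22 with DESeq2 and 148 without the 4 libraries of high marker score in stress against control, 13 and 115 in KYZY against stress, and 1 and 119 in KYZY against control. In the fits without the 4 libraries KYZY 1 is alone in its group, and the cause of the added calls was not tested. Fitting only the 2 groups compared called 1 gene in KYZY against stress. Leaving out 1 library gave 0 to 2, 0 to 1 and 0 to 3 genes in the 3 comparisons, with the highest number without control 3 each time. RLE scaling, no filter, a minimum count of 50, the replicate block and counts divided by 4 called 0 genes.

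With 1 library left out, the median log2 fold change of the members ran from -0.10 to 0.06 in stress against control, from 0.065 to 0.27 in KYZY against stress (0.27 without stress 3) and from 0.05 to 0.20 in KYZY against control. Without stress 3, Eif3a in stress against control was -0.063 (0.51 at the other end of its range). Without the 4 libraries Eif4h was -0.48, Eif4ebp1 -0.37 and Eif3f -0.27 in KYZY against stress, and Eif4h was -0.67 in KYZY against control; the cause was not tested. Eif4e1b in stress against control ran from 0.42 to 0.95, with an edgeR adjusted p of 0.842 to 1.00. Libraries with the same number correlated at -0.15 to 0.56, with 7 of 9 pairs over 0.1, and 7 of 9 libraries correlated best with their own number. Most same-numbered pairs thus shared part of their variation, but KYZY 2 correlated at -0.14 with control 2 and -0.15 with stress 2. Some pairs of unlike number were also correlated, such as stress 3 and KYZY 2 at 0.33, and the cause was not tested. The labels do not say that same-numbered mice share a day, litter or batch, so the main fit did not use the number. Under the replicate block Eif4e1b in stress against control was 0.72 with an unadjusted p of 0.0469 and an edgeR adjusted p of 1.00. No group mean of a member moved by over 1 SD with RLE scaling or counts divided by 4.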
